A study of Mus musculus with 3 samples.

Results

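The genes described here encode the SUN proteins, nesprins and lamins of the nuclear envelope. They were Sun1, Sun2, Sun3, Sun5, Syne1, Syne2, Syne3, Lmna, Lmnb1 and Lmnb2, taken by symbol from the platform annotation, and all 10 were measured, out of 19938 named genes. They were covered by 14 probe sets that name only 1 gene, namely 1 each for 8 of the genes, 2 for Syne1 and 4 for Syne2. In the RefSeq gene table, Sun5 lies on chromosome 2, Lmna on 3, Sun1 on 5, Syne1 and Lmnb2 on 10, Sun3 on 11, Syne2 and Syne3 on 12, Sun2 on 15 and Lmnb1 on 18, so none is sex-linked. RNA came from cells that the labels call spermatids, which are haploid germ cells of the testis, of wild type BALB/c male mice 30 days old. The 3 arrays form 1 untreated group, without a second condition, and the labels do not say that they came from separate animals, so the spread between them may be technical. Per the labels' protocols, tubules were homogenised and strained into a suspension of single cells, with no sorting step described.

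SUN proteins cross the inner nuclear membrane and hold the KASH domains of nesprins in the outer membrane, which together form the LINC complex, a bridge between the nucleus and the cytoskeleton. Lamins form the filament meshwork under the inner membrane to which SUN proteins bind. In meiosis SUN1 and the KASH protein KASH5 tie telomeres to dynein outside the nucleus. In spermatids, SUN3 is known from the flank of the nucleus where the manchette, a sleeve of microtubules, shapes the head, and SUN5 from the joint of head and tail. SUN1 and SUN2 occur in many cell types.

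The spermatid genes Sun3 and Sun5 were the highest of the 10, and both lay far above the background level on every array. Sun1 lay moderately above that level, and Sun2 lay below it. Among the nesprins Syne2 was above background and Syne1 and Syne3 were not, and among the lamins Lmnb1 was above it and Lmnb2 and Lmna were not. In all, 5 of 10 genes were above background, against 36.6% of all named genes called by the same rule. The count was 3 of 10, against 19.3% of named genes, at a stricter level of 9.16 set by the 99th percentile of those background genes. The count was 7 of 10, against 55%, at a lower level of 7.18 from olfactory receptor genes. It was 6 of 10, against 43.6%, without the 4 pseudogenes among the background genes, and 5 of 10, against 31.6%, when probe sets that name several genes were added. Their median was 8.07, against 7.45 for all named genes. Values are log2 levels after Robust Multichip Average (RMA), and the background level of 7.98 is the 95th percentile of 211 vomeronasal receptor and hair keratin associated protein genes, which are not expected in testis. A gene was called where its mean exceeded that level in a one-sided limma test, after Benjamini-Hochberg adjustment across the named genes. The test took the level as fixed, so its p-values reflect spread between arrays and leave out the error of the level itself. Because the median of these background genes was 4.77, far under that level, a gene that was not called is not shown to be absent. Each gene is read by its own probes, which bind with different strength, so the gap between levels of different genes is no ratio of their transcripts.

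**Figure D1:**
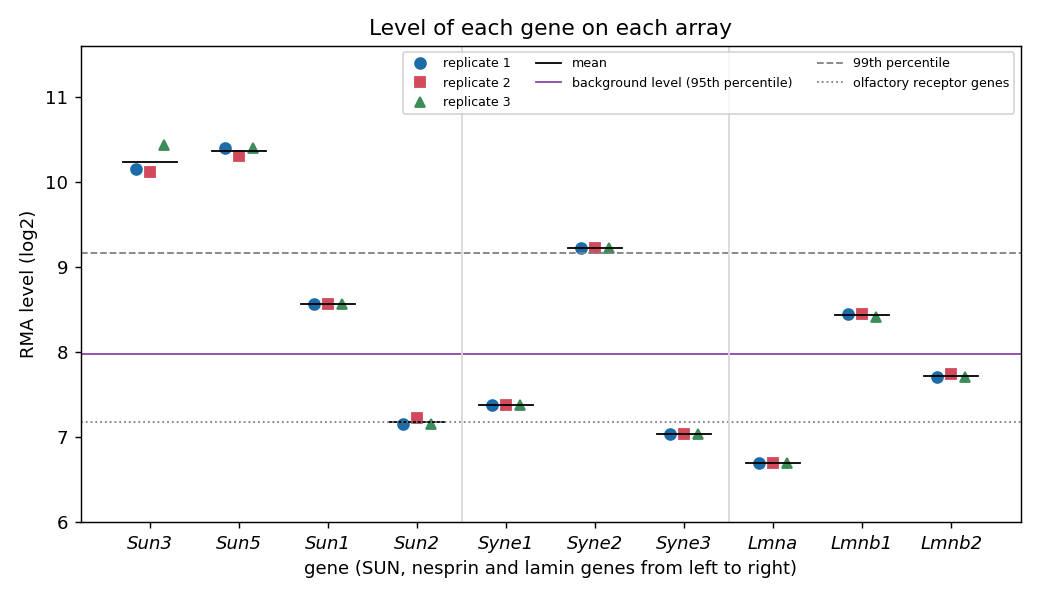
RMA level (log2, vertical axis) of the 10 genes (horizontal axis) on the 3 arrays, with the mean as a short bar and 3 background levels as horizontal lines. Sun3 and Sun5 sit above 10 on every array, Syne2, Sun1 and Lmnb1 sit above the background level of 7.98, and the other 5 genes sit below it.

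Sun5 read 10.40, 10.31 and 10.40 on replicates 1, 2 and 3, a mean of 10.37 ± 0.05 (SD, n = 3). Replicates 1 and 3 were nearly equal and replicate 2 was the lowest. Its mean was 2.39 above the background level (limma, adjusted p = 0.000114) and at the 91.0th percentile of named genes. Sun3 read 10.15, 10.12 and 10.44, a mean of 10.24 ± 0.18 (n = 3), with replicate 3 standing above the others. Its mean was 2.25 above the background level (limma, adjusted p = 0.00146), at the 90.0th percentile. The arrays of Sun3 and Sun5 overlapped, and these neighbours in the order of level did not differ beyond their spread.

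Sun1 read 8.57 on all 3 arrays, with exactly tied values, which was 0.59 above the background level and at the 71.3rd percentile. Sun2 read 7.15, 7.23 and 7.15, a mean of 7.18 ± 0.04 (n = 3), which was below the background level on every array and at the 43.1st percentile. The 4 SUN genes therefore fell on different sides of the background level. At the stricter level of 9.16, Sun3 and Sun5 were still called (limma, adjusted p = 0.0136 and 0.000933), while Sun1 was at -0.59 relative to it and was not. At the lower level of 7.18 Sun2 was not called either, its mean being at -0.0052 relative to that level. SUN4, the product of Spag4 and another SUN protein of spermatids, had a level of 10.39 on all 3 arrays and was called at the levels of 7.98 and 9.16. In bulk RNA such as this, fewer cells of a type and less RNA per cell cannot be told apart.

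The start-site windows of these genes differ in base composition, and they are shown because that is a feature of Sun3, Sun5, Sun1 and Sun2 that the arrays did not measure. Of the 10 genes, 9 had a window in the RefSeq promoter table of assembly GRCm38.p6, 15 windows in all, and Lmnb1 was not among them. The 250 bases before the start site are given 5′ to 3′ on the strand of the gene, with CpG dinucleotides in capitals. For Sun1 and Sun3, which have 2 windows each, the one with more CpG is printed. The Sun3 window is chr11:9048992-9049241 on the minus strand, the Sun5 window chr2:153871085-153871334 on the minus strand, the Sun1 window chr5:139200387-139200636 on the plus strand and the Sun2 window chr15:79742537-79742786 on the minus strand.
Sun3: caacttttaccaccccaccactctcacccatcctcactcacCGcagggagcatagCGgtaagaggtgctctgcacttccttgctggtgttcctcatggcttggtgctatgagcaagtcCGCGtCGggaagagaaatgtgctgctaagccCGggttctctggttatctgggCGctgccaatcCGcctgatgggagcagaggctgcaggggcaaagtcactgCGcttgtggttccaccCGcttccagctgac
Sun5: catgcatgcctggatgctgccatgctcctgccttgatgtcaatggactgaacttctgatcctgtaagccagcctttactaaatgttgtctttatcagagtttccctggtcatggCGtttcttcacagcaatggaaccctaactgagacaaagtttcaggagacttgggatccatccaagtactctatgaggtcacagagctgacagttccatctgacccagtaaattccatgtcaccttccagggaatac
Sun1: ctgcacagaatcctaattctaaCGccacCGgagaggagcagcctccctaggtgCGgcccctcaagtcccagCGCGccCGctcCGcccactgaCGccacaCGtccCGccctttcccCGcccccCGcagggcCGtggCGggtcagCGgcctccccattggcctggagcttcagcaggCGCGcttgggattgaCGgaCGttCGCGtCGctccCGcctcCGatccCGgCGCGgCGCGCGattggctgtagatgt
Sun2: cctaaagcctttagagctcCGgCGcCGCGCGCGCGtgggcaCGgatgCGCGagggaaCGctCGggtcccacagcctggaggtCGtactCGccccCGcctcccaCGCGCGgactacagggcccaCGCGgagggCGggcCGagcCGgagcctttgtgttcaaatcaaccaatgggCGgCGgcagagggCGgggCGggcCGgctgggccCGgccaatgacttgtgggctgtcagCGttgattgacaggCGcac

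The windows of Sun1 and Sun2 hold 30 and 31 CpG dinucleotides and 70.0% and 70.8% G or C. Windows with at least that many made up 5.94% and 5.19% of 32851 windows of all genes. The Sun5 window holds 1 CpG and 46.8% G or C, and 18.8% of windows hold as few. The Sun3 window holds 10 CpG and 58.4% G or C, against medians of 6 and 52.4% over all windows. The other window of Sun3 holds 3 CpG and the other window of Sun1 holds 1, so the contrast with Sun1 rests on which start site is used. The GC box CCGCCC, counted on both strands, was found 3 times in the Sun1 window and 4 times in the Sun2 window, and in 0 of the Sun3 and Sun5 windows. It occurs in 32.7% of all windows. CCAAT, counted likewise, was found 2 times each before Sun1 and Sun2 and 1 time before Sun3, and occurs in 33.8% of all windows. A match is a description of letters and not a bound site.

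**Figure D2:**
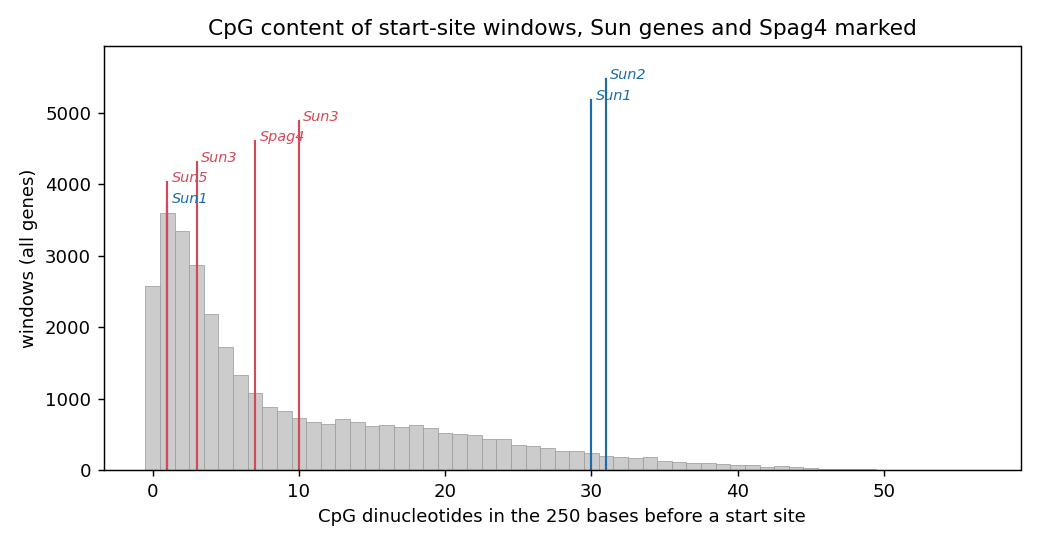
Number of windows of all genes (vertical axis) by the count of CpG dinucleotides in the 250 bases before a start site (horizontal axis), with lines for the windows of Sun1 and Sun2 in blue and of Sun3, Sun5 and Spag4 in red. The lines at 30 and 31 are a Sun1 window and the Sun2 window, and the red lines lie at 10 or fewer; the other Sun1 window lies at 1, on the Sun5 line.

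Spag4 had 7 CpG in its window, at chr2:156064963-156065212 on the plus strand. It holds the palindromic cyclic AMP response element TGACGTCA, the sequence bound by CREM and CREB proteins, of which CREM is known as a regulator of spermatid genes. The window is printed with that element in capitals.
Spag4: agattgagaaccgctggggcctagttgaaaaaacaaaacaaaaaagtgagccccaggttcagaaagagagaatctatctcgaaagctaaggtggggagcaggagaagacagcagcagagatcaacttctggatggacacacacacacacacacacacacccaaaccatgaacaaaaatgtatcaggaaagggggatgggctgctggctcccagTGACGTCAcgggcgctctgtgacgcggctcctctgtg

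The element begins 37 bases before the start site, and 1.55% of all windows hold it. No window of Sun1, Sun2, Sun3 or Sun5 matched it. The half-site TGACG, counted on both strands, was found 2 times in the printed Sun1 window and 3 times in the Spag4 window, where the palindrome itself gives a match on each strand, and occurs in 17.8% of all windows. Neither motif was found in a window of Syne1, Syne2, Syne3, Lmna or Lmnb2, which says only that these letters are not in those 250 bases.

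The nesprins carry the KASH domain and reach to actin, microtubules or intermediate filaments. Syne2, the gene of nesprin-2, had a level of 9.23 on all 3 arrays, 1.25 above the background level and at the 79.8th percentile. This is the median of its 4 probe sets, which had means of 9.79, 9.39, 9.07 and 8.90, each above the background level. The lowest of them read 8.93, 8.71 and 9.05, and the highest 9.82, 9.72 and 9.82, so the spread between the probe sets of this gene exceeded the spread between arrays. Syne1, the gene of nesprin-1, had probe sets at 7.45 and 7.30 with tied values, and its level of 7.37 was at -0.61 relative to the background level of 7.98. It was called at the lower level of 7.18. Syne3, the gene of nesprin-3, which binds plectin and so intermediate filaments, had a level of 7.04 on all 3 arrays, at the 39.3rd percentile. Nesprin-1 and nesprin-2 are very long proteins with many isoforms, and the probe sets do not separate those isoforms here.

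Lmnb1 and Lmnb2 encode the B-type lamins and Lmna the A-type lamins A and C. Lmnb1 read 8.45, 8.45 and 8.41, a mean of 8.44 ± 0.02 (n = 3), which was 0.45 above the background level (limma, adjusted p = 0.000661). Lmnb2 read 7.70, 7.74 and 7.70, a mean of 7.71 ± 0.02 (n = 3), which was below the level on every array and at -0.27 relative to it on average. Lmna read 6.70 on all 3 arrays, the lowest of the 10 genes, at the 30.2nd percentile. The lamins thus ordered Lmnb1, Lmnb2, Lmna, with no overlap between arrays, though this order mixes transcript level with probe binding. Germ cells are known for short isoforms of Lmna and Lmnb2, and 1 probe set per gene cannot separate these from the longer forms. Lmnb1 was at -0.73 relative to the stricter background level, and Lmnb2 was the nearest below the main one. Without the 4 pseudogenes the level was 7.64 and Lmnb2 was called (limma, adjusted p = 0.0221, from 0.000232 to 1 over its alternatives), a check added after seeing the data.

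**Figure D3:**
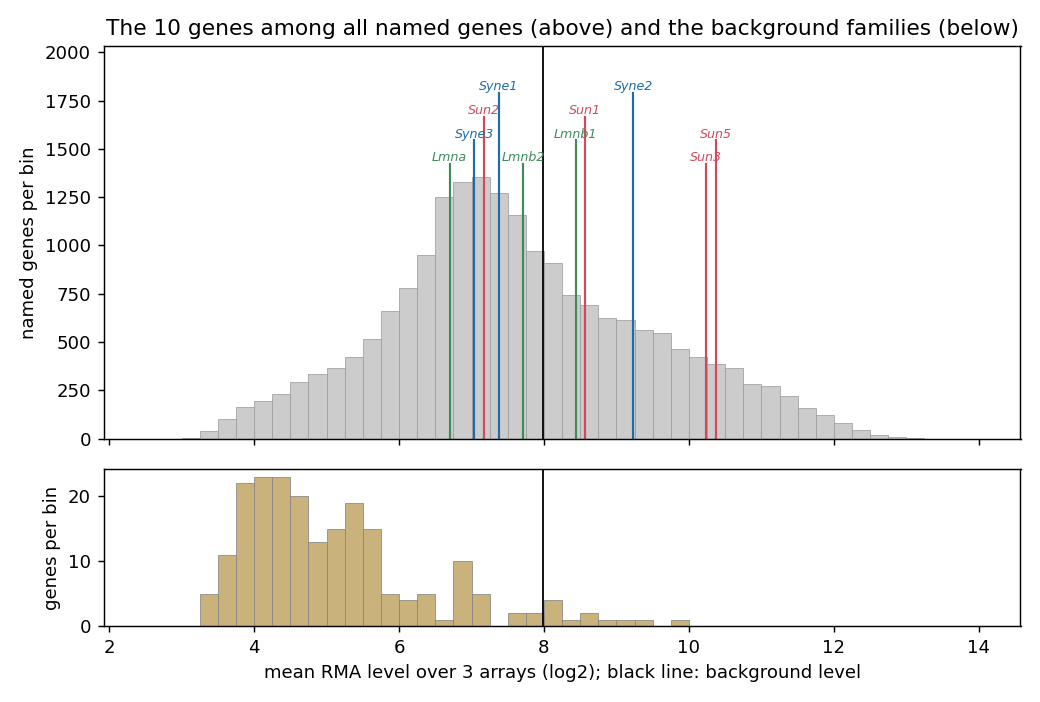
Number of named genes (upper panel) and of background family genes (lower panel) per bin of mean RMA level (log2, horizontal axis), with the 10 genes as lines coloured red for SUN, blue for nesprin and green for lamin genes. Lmna, Syne3, Sun2, Syne1 and Lmnb2 lie left of the background level of 7.98, and Sun3 and Sun5 lie in the upper tail, at the 90.0th and 91.0th percentiles.

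From highest to lowest, the 10 genes were Sun5, Sun3, Syne2, Sun1, Lmnb1, Lmnb2, Syne1, Sun2, Syne3 and Lmna. Apart from Sun5 and Sun3, no neighbours in this order overlapped on the arrays. Of the 10 genes 5 were exactly tied on all arrays, as were 46.0% of all named genes. For these the SD of 0 stands for ties left by the summarising of probes or by the median over probe sets. It does not stand for an absence of error. Syne2 was tied through the median of its 4 probe sets, of which those with means of 9.79 and 8.90 varied between arrays (SD 0.058 and 0.17). For a tied gene the test asks only whether its level lies above the background level. Among 10765 genes with untied values the median SD was 0.054. The SD of Sun3, 0.18, was exceeded by 6.90% of them, and those of Sun5, Sun2, Lmnb1 and Lmnb2 lay below that median.

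By gene level, Sun3 varied most of the 10 between arrays. The lowest probe set of Syne2 varied about as much, at 8.93, 8.71 and 9.05 (SD 0.17, against 0.18 for Sun3). That spread does not show in the gene level, which is a median. Sun3 was 0.20 above its own mean on replicate 3, 0.09 below it on replicate 1 and 0.12 below it on replicate 2. The order of replicate 3 over 1 over 2 was shared by 20.9% of untied genes. It was also that of 6 of 7 untied spermatocyte markers, 4 of 8 spermatid, 2 of 5 Leydig, 1 of 4 Sertoli and 1 of 4 blood and immune markers, and of 0 of 5 peritubular, endothelial and stromal and 0 of 3 spermatogonia markers. A gene with 2 equal arrays cannot show this order but is counted among the untied. Of untied genes, 33.7% had only replicate 2 apart, 22.2% only replicate 3 and 3.94% only replicate 1. All marker lists except Leydig hold such genes, and whether the lists differ in this order was not tested. The mean of the spermatocyte markers was 0.08 above its own mean on replicate 3, and that of the spermatid markers 0.04. Their part in the spread of Sun3 was not tested. Sun2 and Lmnb2 departed on replicate 2 alone, where both were higher by under 0.1, a pattern of 1 array apart that 33.7% of untied genes had on replicate 2 in either direction.

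**Figure D4:**
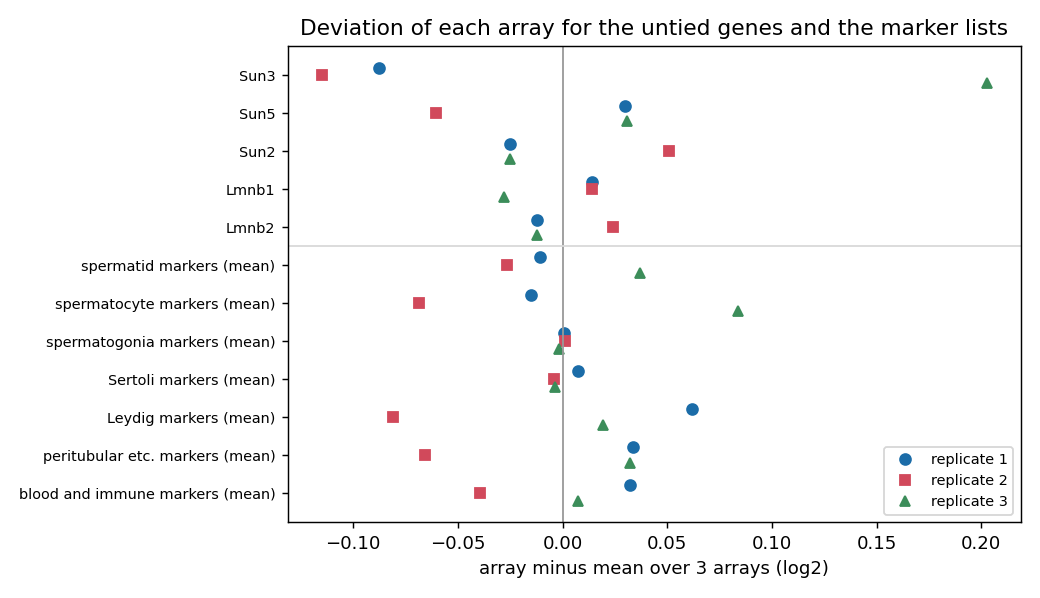
Deviation of each array from the mean over the 3 arrays (log2, horizontal axis) for the 5 genes with untied values (above the line) and for the mean of each marker list (below it). Sun3 on replicate 3 is farthest from 0, at 0.20. The spermatocyte and spermatid markers have replicate 3 highest as well, at 0.08 and 0.04.

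The labelled cell type was checked with marker lists. All 8 spermatid markers were above background, from Prm2, a protamine, at 13.22 ± 0.04 (n = 3) to Spaca1 at 11.78 ± 0.03, and so were all 8 spermatocyte markers, from Ldhc at 12.92 ± 0.06 to Piwil1 at 10.12 ± 0.01. Of 6 spermatogonia markers 2 were, against 36.6% of all named genes, with Dmrtb1 at 8.86 ± 0.03 highest and Nanos2 at 6.59 lowest. Of the somatic markers, all 6 measured Leydig genes were above background, from Cyp17a1 at 11.36 ± 0.06 to Hsd3b1 at 8.36 ± 0.14. So were 5 of 7 Sertoli markers, where Cst12 at 11.81 ± 0.04 was highest and Amh at 5.91 was lowest and not called. Gata4, named after its value was seen, was called with tied values only 0.0151 above the level. The Sertoli count was 4 with centred arrays and with probe sets of several genes, against 36.8% and 31.6% of named genes. It was 6 with the olfactory receptor level, against 55%. The counts were 4 of 7 for peritubular, endothelial and stromal markers (Dcn at 11.16 ± 0.02 highest, Lum at 5.80 lowest and not called) and 3 of 5 for blood and immune markers (Mrc1 at 9.67 ± 0.09 highest, Ptprc at 6.67 lowest and not called). Read against the share of 36.6%, the counts for spermatogonia, peritubular and blood markers do not set these lists apart. Without replicate 1 or without replicate 3 the counts were 1 for spermatogonia, 2 for peritubular, endothelial and stromal and 2 for blood and immune markers. The Leydig count was then 5, where Hsd3b1 was the one lost. These settings called 33.4% and 34.1% of named genes. The list mean over the arrays ranged from 9.35 to 9.36 for Sertoli and from 10.15 to 10.29 for Leydig markers. Which cells gave the signal of Sun1, Syne2 or Lmnb1, which are known from somatic cells and spermatocytes as well, was not tested.

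Among other SUN and KASH genes 3 of 5 were above background, against 36.6% of named genes, with a list median of 8.24. Besides Spag4, these were Kash5, the KASH gene of meiosis, at 8.24 on all 3 arrays and Suco, a gene with a SUN-like domain, at 11.46 ± 0.04 (n = 3). Syne4, the gene of nesprin-4, was at 7.55 ± 0.01, and Lrmp, also known as Irag2, at 6.14, and neither was above background. Suco and Lrmp were named after their values were seen. Of 6 measured genes of telomere attachment in meiosis, the setting in which SUN1 and KASH5 act, 5 were above background, against 36.6% of named genes, and their median was 8.57. The telomere protein gene Terf1 was at 10.37 ± 0.20 and Terb1 at 9.93 ± 0.16, while Terb2 was at 8.19 and Majin at 7.41, the last not called. Kash5, already counted among the other SUN and KASH genes, is in this list as well and is among those called. Terb1, Terb2 and Majin encode the proteins that join telomeres to the inner nuclear membrane. At the stricter background level of 9.16 only Terf1 and Terb1 of this list were called, against 19.3% of named genes. When probe sets of several genes were added, which raised the level to 8.33, 3 were called, against 31.6%. Kash5 was called at neither of these levels, so the count of other SUN and KASH genes was then 2.

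Genes listed for the inner nuclear membrane and lamin binding were above background in 9 of 15 cases, against 36.6% of named genes. Their list median was 8.46, and not every listed gene encodes a protein of that membrane. Nrm, which encodes nurim, was highest at 10.03 and Lemd3 followed at 9.92 ± 0.10 (n = 3), and Lemd1 at 7.30 and Tmem43 at 6.96 were lowest. Lbr, the lamin B receptor gene, was at 8.88 ± 0.02 and Emd, the emerin gene, at 8.38, both named after their values were seen. This count was 5 at the stricter level, where 19.3% of all named genes were called, and 14 with the olfactory receptor level, where 55% were. Of 5 genes that process the tail of prelamins 3 were above background, against 36.6% of named genes, with a list median of 8.14. Fnta, the alpha subunit of farnesyltransferase, was at 10.47 ± 0.12, and Fntb, the beta subunit of that enzyme, at 6.41 ± 0.02 and not called. The methyltransferase gene Icmt was at 9.02 and the protease gene Rce1 at 7.86 ± 0.01, the latter not called. The protease gene Zmpste24, named after its value was seen, was at 8.14 ± 0.06 and narrowly called (limma, adjusted p = 0.0363). Its 2 probe sets disagreed, with means of 9.51 and 6.78. Leaving out replicate 1, 2 or 3 ended its call (limma, adjusted p = 0.209, 0.0838 and 0.173, from 0.000543 to 1 over its alternatives) and left 2 genes of this list. Without replicate 1, 2 or 3 the share of named genes called was 33.4%, 35.6% and 34.1%. At the stricter level 1 gene of this list was called, against 19.3% of named genes.

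Genes of the joint between head and tail, the site of SUN5, were above background in all 12 cases, against 36.6% of named genes, with a list median of 11.37. Odf1, of the outer dense fibres, was at 12.33 ± 0.04 (n = 3) and Spata6, needed for the connecting piece, at 12.03 ± 0.07. Spatc1l at 9.29 ± 0.01 and Cntln, the centlein gene, at 9.13 ± 0.08 were lowest. Dnajb13, whose product is known to bind SUN5, was at 11.56 on all 3 arrays and was named after its value was seen. Genes that anchor the acrosome to the nucleus or belong to the manchette, the site of SUN3, were above background in 10 of 11 cases, against the same 36.6%, with a list median of 10.54. Agfg1, of acrosome formation, was highest at 12.02 and Spaca1, of the acrosomal membrane, was at 11.78 ± 0.03. Spaca1 is also counted among the spermatid markers. Spata46, a nuclear membrane gene of spermatids, was at 9.12 and Cep131 at 7.95, the last at -0.04 relative to the background level and not called. Septin12, whose product is known to bind SUN4 and lamin B1, was at 11.13 ± 0.01 and was named after its value was seen. These lists were drawn up with results of these data known, and their counts describe the genes on these arrays.

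**Figure D5:**
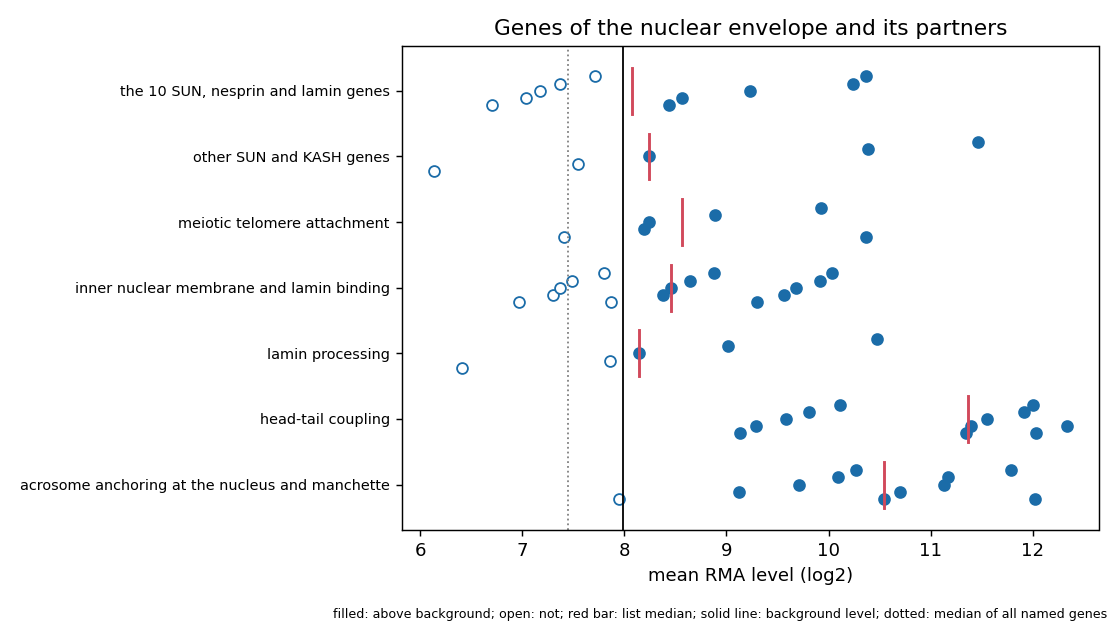
Mean RMA level (log2, horizontal axis) of each gene of the 10 and of 6 lists (vertical axis), filled where the gene was above background, with the list median as a red bar, the background level as a solid line and the median of all named genes as a dotted line. The medians of 11.37 and 10.54 for head-tail coupling and for acrosome anchoring and manchette lie to the right of the 8.07 of the SUN, nesprin and lamin genes.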

How the data were processed

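RNA of 3 samples was hybridised to GeneChip Mouse Gene 1.0 ST arrays of Affymetrix. The values deposited are log2 levels of probe sets. The authors obtained them by RMA in Affymetrix Power Tools, with an mm9 annotation, per the series' design text; the software version is not given here. RMA in its usual form makes the arrays share 1 distribution and summarises probes by median polish, which leaves tied values. Detection calls and probe sequences were not used here. Column medians were 7.17, 7.20 and 7.17.

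The platform annotation gave 1 gene for 21789 of 35556 probe sets; symbols were updated by Entrez identifier for 21698. Probe sets of 1 gene were combined by their median. The test was fitted on all 19938 genes with limma 3.58.1 in R 4.3.3 (intercept model, empirical Bayes, threshold 0.05) and tested on simulated data. The simulated data held no tied genes and no unshifted gene close to the level, so they do not check the test for such genes. The background families were 44 hair keratin associated protein and 167 vomeronasal receptor genes. The number of arrays limits the precision. Alternatives were other background levels, probe set rules, call rules, centring, the prior and leaving out each array. The 10 genes and the lists were chosen with earlier results of these data known. Named genes were the 10 genes, Spag4, Syne4, Kash5, the 2 highest and 2 lowest of each other list, and the highest and lowest of each marker list; exceptions are stated. Promoter windows were taken from RefSeq (GRCm38.p6), with the 50 bases after each start left out. Spdya, Rhox5, Insl3 and Hbb-b1 were listed but not measured by a probe set of their own.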

Additional observations from a re-analysis of the deposited data

How the results depend on the processing

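Of 10 genes, 5 were above background in the reported analysis and also without replicate 1, 2 or 3. The same count held with the highest probe set, probe sets of several genes, centred arrays or an intensity trend in the prior. It also held with all 3 arrays asked to exceed the level. In these settings the share of named genes called ran from 31.6% (probe sets of several genes) to 37.6% (all 3 arrays above the level). The count was 3 at the 99th percentile level, 7 with the olfactory receptor level and 6 without the pseudogenes, an alternative added after seeing the data, while the share of all genes called moved to 19.3%, 55% and 43.6%. The level chosen therefore decided these calls: at the 99th percentile Sun1 lay at -0.59 and Lmnb1 at -0.73 relative to it, with the olfactory receptor level Syne1 lay at 0.19 and Lmnb2 at 0.53, and without pseudogenes Lmnb2 lay at 0.0693. Sun3, Sun5 and Syne2 were called under every alternative run. Sun3 came near the threshold of 0.05 without replicate 1 and without replicate 2 (limma, adjusted p = 0.0330 and 0.0461). Syne2 was called by only 0.0676 at the 99th percentile level of 9.16, under which its probe sets with means of 9.07 and 8.90 lay. At that level the counts were 2 for telomere attachment, 5 for the inner nuclear membrane and 1 for lamin processing. With the olfactory receptor level the inner nuclear membrane count was 14, and with probe sets of several genes the telomere count was 3, where the background level rose to 8.33. The lamin processing count was 2 without replicate 1, 2 or 3 and with probe sets of several genes. Those settings called 33.4%, 35.6%, 34.1% and 31.6% of named genes. The count of other SUN and KASH genes was 2 with probe sets of several genes and at the 99th percentile, against 31.6% and 19.3%. No paired analysis was possible because there is 1 group.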
